A study of Homo sapiens with 11 samples.

Results

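The 10 genes described here are hosts of small nucleolar RNAs (snoRNAs): GAS5, ZFAS1, SNHG1, SNHG5, SNHG6, SNHG8, SNHG12, SNHG15, DANCR and EPB41L4A-AS1. They were taken by gene symbol from a table of 58699 genes, and each symbol matched 1 row. RNA came from the human colorectal cancer line HCT116, an established line of epithelial origin. Every group carried an siRNA: controls received the luciferase siRNA (siLuc), which has no target in human cells, and the others an siRNA to Staufen1 (siStau1), a binder of double-stranded RNA. Each siRNA was combined with the solvent DMSO or with decitabine (DAC), an inhibitor of DNA methyltransferases, used at 500 nM for 5 days per the labels. The 4 resulting groups had 2 total RNA libraries each, made with a stranded kit after removal of ribosomal RNA.

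The deposited table gives 1 FPKM value (fragment counts scaled to transcript length and library size) per group and none per library. No spread between libraries can therefore be given, and the depth is unknown. A gene was called where the q-value in the authors' deposited table, adjusted over all 102180 tests of 6 comparisons, was under 0.05. Nothing in the labels says that the 2 libraries of a group came from separate cultures, so the spread between libraries behind these p-values may be technical. In RNA from whole cultures, fewer cells of a type and less RNA per cell cannot be told apart. STAU1 itself had 35.5 FPKM with DMSO and 33.7 with DAC in siLuc cells, and 30.0 and 27.1 in siStau1 cells. The knockdown gave it log2 ratios of −0.24 (DMSO) and −0.31 (DAC), with q-values of 0.767 and 0.685 in the authors' deposited table. The mRNA in the groups labelled siStau1 thus differed little from the control, and the comparisons of siStau1 with siLuc are named knockdown here only after the labels. Of 6 epithelial markers, EPCAM, KRT8, KRT18, KRT19 and CDH1 were present in every group, VIL1 was at most 0.198 FPKM, and their summed level was 2593 and 2146 FPKM in the DMSO groups and 8191 and 5929 FPKM in the DAC groups of siLuc and siStau1. The keratins carried this sum, while EPCAM had 259 FPKM with DMSO and 117 with DAC in siLuc cells, against 338 and 179 in siStau1 cells. The 5 markers of other cell types summed to between 0.908 and 9.92 FPKM, and COL1A1 held most of it.

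SnoRNAs guide the chemical modification of ribosomal RNA, and most human ones are cut out of the introns of a host gene. The exons of many non-coding hosts are spliced, exported and read by ribosomes, which meet an early stop codon. Such transcripts are classical substrates of nonsense-mediated decay (NMD), so their spliced RNA is short-lived although their snoRNAs are stable. Staufen1 binds structured RNA and recruits UPF1, the helicase that NMD also uses, in a related route called Staufen-mediated decay. Several hosts, GAS5 among them, start with a tract of pyrimidines like the mRNAs of ribosomal proteins, which links their translation to growth signals.

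Some annotated starts of the hosts show this feature. A start was counted as having a tract where a C was followed by 3 more letters C or T, read on the transcript strand in GENCODE release 29. It was found at 1 or more annotated starts of 7 of the 10 hosts, against 27.8% of 15019 genes with at least 4 transcripts and 86.8% of 76 ribosomal protein genes. A gene with more transcripts has more starts to count. The hosts have from 4 (EPB41L4A-AS1) to 29 (GAS5), and these shares were not matched for that number. Counted over transcripts, 22 of 133 host transcripts (16.5%) and 3.81% of all 206694 annotated transcripts had it. The first 24 bases of the most frequent such start are given for 6 hosts with a tract. The 3 hosts without one are shown for contrast, at their most frequent start. Capitals mark the unbroken run of C and T at the start.
GAS5, chr1:173867966-173867989, minus strand: CTTTTCgaggtaggagtcgactcc
ZFAS1, chr20:49278642-49278665, plus strand: CTTTCgcgtctgcggtgcccggag
SNHG1, chr11:62855456-62855479, minus strand: CTCCTgtctgcaggatttacgcgc
SNHG5, chr6:85678710-85678733, minus strand: CTTTTacgtcggccttcgcgagcg
SNHG8, chr4:118278758-118278781, plus strand: CTTTCacattcgggaagcgtcggg
SNHG12, chr1:28581850-28581873, minus strand: CCTTTCTCCCCgccgcattcccgg
SNHG15, chr7:44986938-44986961, minus strand: Cattaggggctcagcgcgtccctc
DANCR, chr4:52712404-52712427, plus strand: agagtcttcccgggattggctgcg
EPB41L4A-AS1, chr5:112160526-112160549, plus strand: Tgtcgggtcccaaaatacgtggtc
SNHG12 had the longest run of those shown, 11 pyrimidines, and the other 5 runs were 5 or 6 long. SNHG6 also had a tract, at 3 of its 5 annotated transcripts. In SNHG1 only 1 of 25 transcripts had one, at a start inside the gene, whose span begins at 62855914 on the minus strand. That start is also downstream of the nested SNORD25 (62855564 to 62855632). The starts shown for the other 5 hosts with a tract also lie inside the annotated span, not at its outer end. An annotated start is not a measured one, and no start was measured here.

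The members' levels spanned a wide range (the plot of FPKM by group). In siLuc DMSO, the order from high to low was ZFAS1, GAS5, SNHG6, SNHG5, SNHG8, SNHG1, EPB41L4A-AS1, SNHG12, DANCR and SNHG15. ZFAS1 at 434 FPKM was above 98.0% of the genes with at least 1 FPKM in that group, and SNHG15 at 21.6 FPKM was above 69.2%. In siLuc DAC the first was GAS5 at 436 FPKM and the last was EPB41L4A-AS1 at 45.0 FPKM. SNHG6 moved from the third to the seventh place and SNHG12 from the eighth to the sixth. In siStau1 DMSO SNHG6 was first, at 428 FPKM. Without values per library, which neighbours in these orders differ beyond their spread cannot be said.

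**Figure D1:**
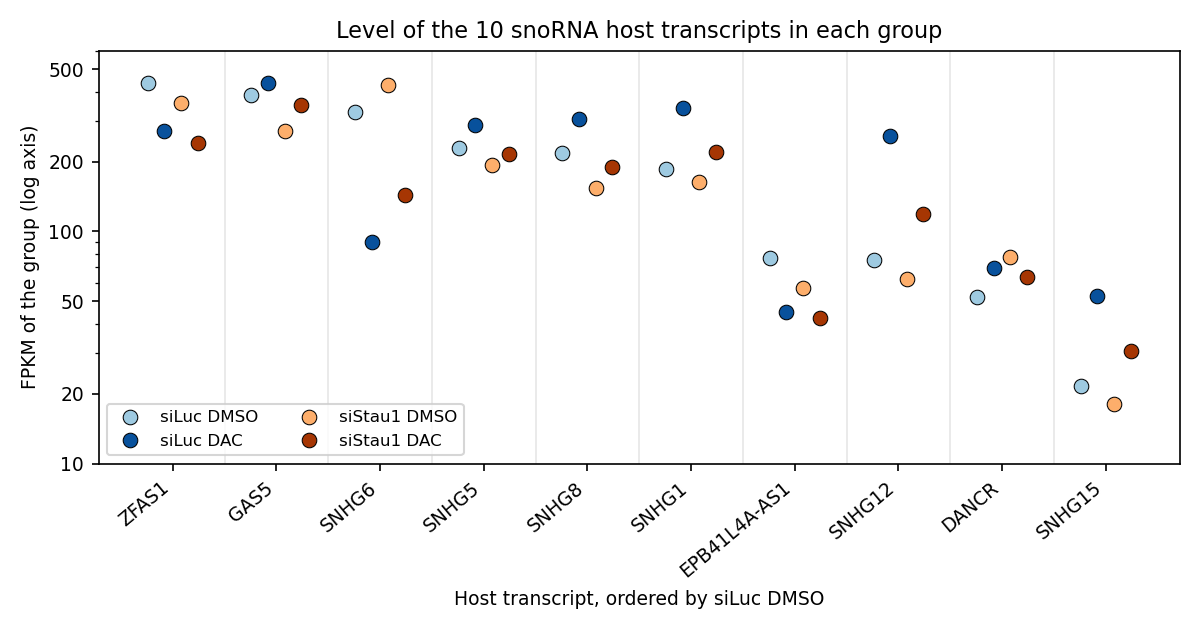
FPKM of each host transcript (log axis) in the 4 groups, 1 point per group and no error bars because values per library were not given. SNHG6 was lowest in the DAC groups (90.0 and 143 FPKM), while SNHG12 and SNHG15 were highest in them (257 and 119, and 52.5 and 30.5 FPKM).

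SNHG12 and SNHG6 were called in opposite directions when decitabine was compared with DMSO in control cells. SNHG12 (ENSG00000197989.14, chromosome 1, 28578538 to 28583132, minus strand, GRCh38) hosts SNORA61, SNORA44, SNORA16A and SNORD99. It had 75.2 FPKM with DMSO and 257 with DAC in siLuc cells, against 62.6 and 119 in siStau1 cells. Both DAC groups were above both DMSO groups. In siLuc it rose 3.42-fold with DAC, a log2 ratio of 1.77 (q = 0.00162 in the authors' deposited table). In siStau1 the log2 ratio was 0.93, which was not called (q = 0.208 in the authors' deposited table).

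SNHG6 (ENSG00000245910.8, minus strand of chromosome 8), the host of SNORD87, went the other way. It had 328 FPKM with DMSO and 90.0 with DAC in siLuc cells, against 428 and 143 in siStau1 cells. Both DAC groups were below both DMSO groups. With DAC in siLuc it fell by 1.86 on the log2 scale, 3.64-fold (q = 0.00162 in the authors' deposited table). In siStau1 it fell by 1.58 on the log2 scale, 2.98-fold (q = 0.00632 in the authors' deposited table).

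The 2 calls among 10 hosts in siLuc stand beside 13.5% of the 17504 genes tested there, 8.71% called higher and 4.78% called lower. In siStau1, the call of SNHG6 stands beside 7.46% of 16979 genes, 4.56% higher and 2.89% lower. With 10 hosts, counts of 2 and 1 lie near these shares and show nothing particular to snoRNA hosts. The median log2 ratio of the 10 hosts was 0.37 in siLuc and 0.22 in siStau1, and over all tested genes it was 0.23 and 0.11. With DAC, 7 of 10 hosts were on the higher side in siLuc and 6 of 10 in siStau1, against 57.1% and 54.1% of all tested genes. These directions depend on the scaling. The FPKM of all genes did not sum to the same total in each group, and the 3 highest genes held 31.1% of the sum in siLuc DMSO and 41.7% in siLuc DAC. As a share of that sum the 10 hosts together had 1779 FPKM per 1e+06 FPKM with DMSO and 1199 with DAC in siLuc cells, against 1845 and 1083 in siStau1 cells. Scaling to the sum, an alternative chosen after the data were seen, lowers every log2 ratio with DAC by 0.67 in siLuc and by 0.62 in siStau1. It left 3 of 10 hosts on the higher side in siLuc and 2 of 10 in siStau1, with medians of −0.30 and −0.40. The called hosts kept their direction, at 1.10 for SNHG12 and −2.53 for SNHG6 in siLuc and −2.20 for SNHG6 in siStau1.

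**Figure D2:**
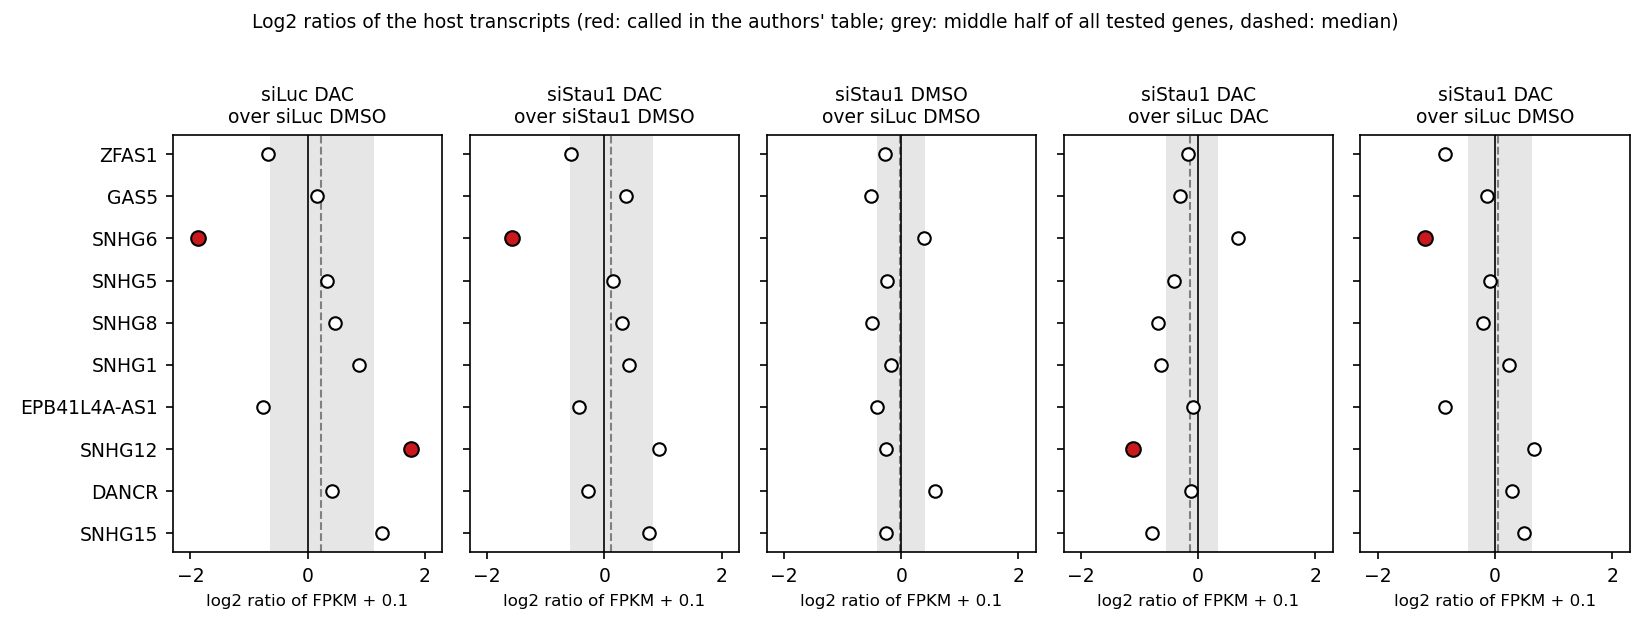
Log2 ratio of FPKM + 0.1 for the 10 hosts in 5 comparisons, with called hosts in red and the quartile range and median of all tested genes in grey. SNHG6 is the lowest point in 3 panels (−1.86, −1.58 and −1.19), and SNHG12 is the highest with DAC in siLuc (1.77) and the lowest for the knockdown under DAC (−1.11).

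The 8 other hosts were not called with DAC in either arm. SNHG15, the host of SNORA9, had 21.6 FPKM with DMSO and 52.5 with DAC in siLuc cells, against 18.0 and 30.5 in siStau1 cells. Its log2 ratio with DAC was 1.28 in siLuc (q = 0.0646 in the authors' deposited table) and 0.76 in siStau1. Adjusted within the siLuc comparison alone, its q-value was 0.0365, so that 3 hosts passed in place of 2. SNHG1, which carries a series of box C/D snoRNAs, had 185, 339, 164 and 219 FPKM in the order siLuc DMSO, siLuc DAC, siStau1 DMSO, siStau1 DAC. Its log2 ratio was 0.88 in siLuc (q = 0.151 in the authors' deposited table) and 0.42 in siStau1. For SNHG1 and SNHG15, as for SNHG12, siLuc DAC was the highest group and siStau1 DMSO the lowest.

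GAS5, known as a growth arrest transcript and a decoy of the glucocorticoid receptor, was not called in any of the 5 comparisons. It had 389 FPKM with DMSO and 436 with DAC in siLuc cells, against 272 and 352 in siStau1 cells. SNHG5, the host of SNORD50B, had 229, 286, 194 and 215 FPKM in that order. SNHG8, the host of SNORA24, had 219, 304, 154 and 190 FPKM. These 3 hosts shared 1 order of the groups: siLuc DAC, siLuc DMSO, siStau1 DAC, siStau1 DMSO, from high to low. Their log2 ratios with DAC lay between 0.17 and 0.48 in siLuc and between 0.15 and 0.37 in siStau1.

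ZFAS1 and EPB41L4A-AS1 had lower values with DAC in both arms. ZFAS1, which hosts SNORD12, SNORD12B and SNORD12C, had 434 FPKM with DMSO and 271 with DAC in siLuc cells, against 358 and 240 in siStau1 cells. Its log2 ratios were −0.68 in siLuc and −0.57 in siStau1, with q-values of 0.715 and 0.701 in the authors' deposited table. EPB41L4A-AS1, the host of SNORA13, had 76.7, 45.0, 57.2 and 42.4 FPKM, with log2 ratios of −0.77 and −0.43. DANCR, the host of SNORA26 and named for its part in holding back differentiation, had 52.1, 69.3, 77.4 and 63.6 FPKM. It was the only host whose log2 ratio with DAC had opposite signs in the 2 arms, 0.41 in siLuc and −0.28 in siStau1, and the first of these was 0.012 after GC centring.

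Across all genes, the ratio of DAC over DMSO moved with the GC content of the transcript, and the hosts differ in it (the plot against GC content). The longest annotated transcript of SNHG6 has 42.0% GC and that of SNHG12 has 56.6%. Within bins of like GC content, the median log2 ratio with DAC in siLuc was −0.58 around SNHG6 and 0.67 around SNHG12. After subtracting these medians, the log2 ratio of SNHG12 was 1.10 and that of SNHG6 was −1.28. ZFAS1, with 55.7% GC, went from −0.68 to −1.25, and SNHG1, with 43.1%, from 0.88 to 1.36. When GC content was taken as the median over a gene's transcripts (50.7% for SNHG12), an alternative chosen after the data were seen, the value of SNHG12 was 1.78. In siStau1 the centred values were 0.41 for SNHG12 and −1.18 for SNHG6. No host changed sign with DAC in either arm under either GC centring or centring in bins of transcript length, but some values came close to 0. With DAC in siLuc, DANCR went from 0.41 to 0.012 with GC centring and GAS5 from 0.17 to 0.026 with length centring. The part of GC content in the calls was not tested.

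**Figure D3:**
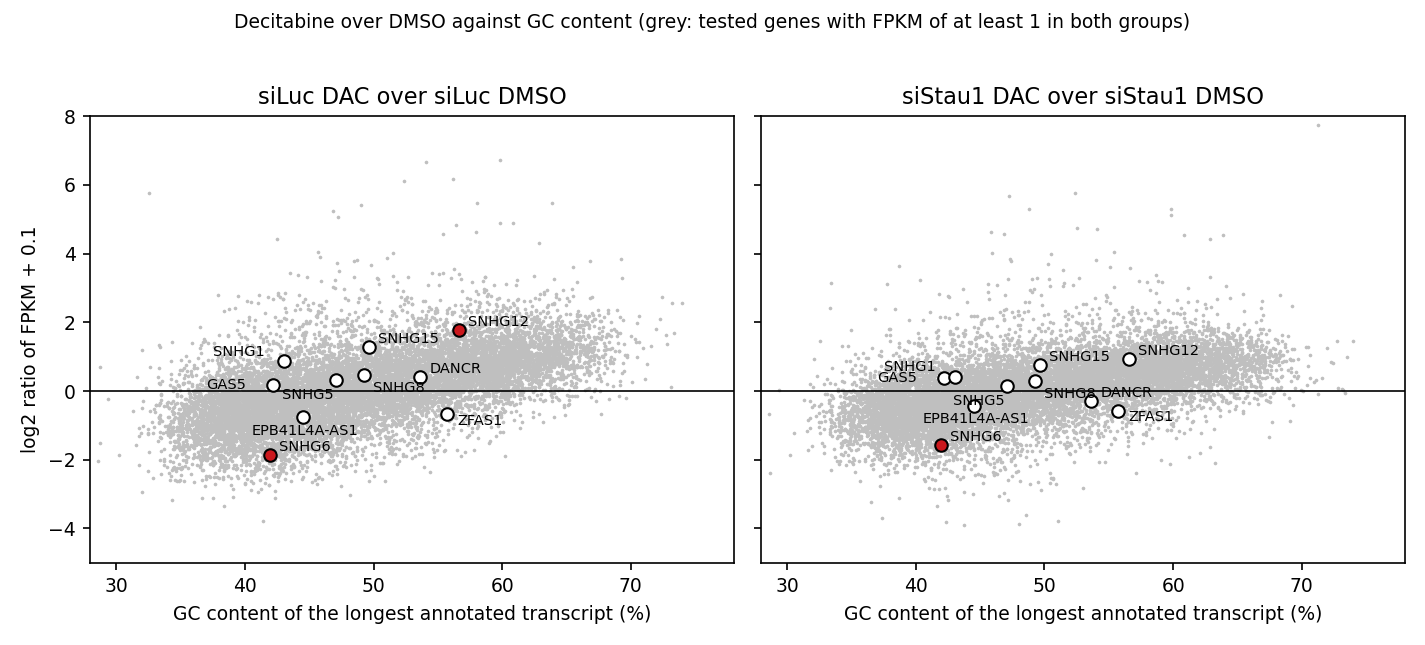
Log2 ratio of DAC over DMSO in siLuc (left) and siStau1 (right) against the GC content of each gene's longest annotated transcript, with tested genes at 1 FPKM or more in both groups in grey and the hosts as circles (red: called). Grey points rise from left to right; SNHG6 lies at the lower left (42.0% GC, −1.86 in siLuc) and SNHG12 on the right (56.6% GC, 1.77).

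Without decitabine, no host was called between the groups labelled siStau1 and siLuc, in which STAU1 mRNA itself had 30.0 and 35.5 FPKM and was not called. The comparison of siStau1 DMSO with siLuc DMSO called 0.799% of 15893 genes, 0.333% higher and 0.466% lower, and none of the 10 hosts had an unadjusted p under 0.05 in the authors' Cuffdiff test. The largest log2 ratios were 0.57 for DANCR, −0.51 for GAS5 and −0.50 for SNHG8. The q-values of these 3 in the authors' deposited table were 0.497, 0.483 and 0.600. The median log2 ratio was −0.26, against −0.02 over all tested genes. Of the 10 hosts, 8 were on the lower side, against 48.7% of all tested genes on the higher side. After GC centring 6 were on the lower side, as ZFAS1 and SNHG12 came to 0.01 and 0.02. Scaled to the sum of FPKM, 7 were.

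Under decitabine, SNHG12 was the 1 host called between the groups labelled siStau1 and siLuc, in which STAU1 had 27.1 and 33.7 FPKM. It went from 257 FPKM in siLuc DAC to 119 in siStau1 DAC and fell by 1.11 on the log2 scale, 2.16-fold (q = 0.0296 in the authors' deposited table). Its q-value was 0.298 when adjusted within this comparison alone, and its log2 ratio was −0.66 after GC centring. The background in this comparison was 0.904% of 17263 genes called, 0.434% higher and 0.469% lower. SNHG15, SNHG8 and SNHG1 followed with log2 ratios of −0.78, −0.68 and −0.63, and the q-values in the authors' deposited table were 0.350, 0.220 and 0.389. SNHG6 alone was on the higher side, with a log2 ratio of 0.67 (q = 0.400 in the authors' deposited table). Of all tested genes, 41.9% were on the higher side. The median of the 10 hosts was −0.36, against −0.14 over all tested genes. With GC centring 7 of the 9 lower hosts stayed on the lower side, and with length centring 6 did. Scaled to the sum of FPKM, 6 did, and SNHG12 was at −0.84.

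In 8 of 10 hosts the siStau1 value was below the siLuc value with DMSO and with DAC alike. The exceptions were SNHG6, which was higher in siStau1 with both treatments, and DANCR. Of all tested genes, 48.7% were on the higher side with DMSO and 41.9% with DAC. The share lower with both was not computed. Some of the 8 changed side with other processing: ZFAS1 and SNHG12 with GC centring, and ZFAS1 and EPB41L4A-AS1 with length centring. Scaled to the sum of FPKM, SNHG1, ZFAS1 and EPB41L4A-AS1 did. The comparison of DAC in siLuc and that of the knockdown under DAC share the siLuc DAC group. For SNHG12 the values of these 2 comparisons were 1.77 and −1.11, for SNHG15 1.28 and −0.78, for SNHG1 0.88 and −0.63, and for SNHG6 −1.86 and 0.67. The signs were also opposite for GAS5, SNHG5, SNHG8 and DANCR. They were the same for ZFAS1 (−0.68 and −0.17) and EPB41L4A-AS1 (−0.77 and −0.08). In size, the ratio with DAC was smaller in siStau1 than in siLuc for 9 of 10 hosts, all but GAS5, as it was for 62.2% of 15956 genes tested in both arms. The difference, siStau1 minus siLuc, went from −0.85 for SNHG12 to 0.34 for EPB41L4A-AS1 on the log2 scale. That difference between the arms was not tested, since it needs values per library.

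SNHG6 was the 1 host called when both treatments were set against neither. From siLuc DMSO to siStau1 DAC it fell by 1.19 on the log2 scale, 2.29-fold (q = 0.0434 in the authors' deposited table), and its q-value was 0.0657 when adjusted within the comparison. Of 16909 genes, 4.98% were called in this comparison, 4.02% higher and 0.964% lower. ZFAS1 and EPB41L4A-AS1 each had a log2 ratio of −0.85, and SNHG12 had the highest, 0.66 (q = 0.361 in the authors' deposited table). The remaining 6 hosts lay between −0.21 and 0.50. The median was −0.11, against 0.05 over all tested genes, and it was 0.087 after GC centring.

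The snoRNAs inside the hosts are separate genes in the table. The annotation places 21 snoRNA genes on the same strand inside 9 of the hosts. It lists none inside GAS5, which is a host too, so the 21 are not all snoRNAs of the 10 hosts. SNHG1 holds 7 of them, SNHG12 holds 5 (2 are overlapping SNORA16A entries), ZFAS1 holds 3 and the other 6 hosts hold 1 each. The sequences of 4 are given: the 3 with the highest FPKM in siLuc DAC and, for contrast, a short one listed at 0. They were read from the GENCODE transcripts. Capitals mark the ACA that lies 3 bases before the end of box H/ACA snoRNAs. In box C/D snoRNAs they mark the letters TGATGA (box C) and CTGA (box D).
SNORD22, in SNHG1, chr11:62852910-62853035, minus strand: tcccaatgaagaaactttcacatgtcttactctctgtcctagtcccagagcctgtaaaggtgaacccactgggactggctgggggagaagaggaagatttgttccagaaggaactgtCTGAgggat
SNORA24, in SNHG8, chr4:118279190-118279320, plus strand: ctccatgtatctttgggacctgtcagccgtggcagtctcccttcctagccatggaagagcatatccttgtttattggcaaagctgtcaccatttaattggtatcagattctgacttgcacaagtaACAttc
SNORA16A, in SNHG12, chr1:28580920-28581054, minus strand: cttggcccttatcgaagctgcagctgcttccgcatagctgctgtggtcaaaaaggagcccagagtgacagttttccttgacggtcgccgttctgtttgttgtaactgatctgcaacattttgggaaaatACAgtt
SNORD25, in SNHG1, chr11:62855564-62855632, minus strand: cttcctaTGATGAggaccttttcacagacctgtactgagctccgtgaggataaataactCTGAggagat
Both TGATGA within the first 20 bases and CTGA within the last 20 were found in 8 of the 11 nested snoRNAs under 100 bases, in none of the 10 longer ones, and in 52.8% of the 390 annotated snoRNA transcripts under 100 bases. ACA at 3 bases from the end was found in 7 of the 10 nested snoRNAs of 100 bases or longer, with the 2 overlapping SNORA16A entries counted separately, in none of the 11 shorter ones, and in 46.3% of the 614 annotated snoRNA transcripts of 100 bases or longer. Both motifs were searched on the transcript strand only.

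Among the nested snoRNA genes, length separated those with a value from those without. All 11 nested snoRNAs of 69 to 91 bases, SNORD25 and SNORD87 among them, were listed at 0 in all 4 groups. All 10 of 122 to 137 bases had a value above 0 in some group, and 8 of them reached at least 1 FPKM in some group. Over the whole table, 0 of 388 snoRNA genes under 100 bases and 194 of 604 longer ones (32.1%) had a value above 0. A 0 for a short snoRNA is therefore not a measurement of its absence.

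SNORD22 had 656 FPKM with DMSO and 3017 with DAC in siLuc cells, against 179 and 1397 in siStau1 cells. SNORA24 had 131, 669, 81.8 and 318 FPKM in that order. SNORA16A had 26.2, 89.6, 19.2 and 45.0 FPKM, and a second gene entry at the same place, 2 bases longer, was near 0 in all groups. In these 3, siLuc DAC was the highest group and siStau1 DMSO the lowest, as in their hosts SNHG1, SNHG8 and SNHG12. The middle groups of SNORA24 stood in the opposite order to those of SNHG8. SNORA13, the fourth with at least 1 FPKM in all groups, had 5.57, 12.1, 12.8 and 8.35 FPKM while its host EPB41L4A-AS1 was highest in siLuc DMSO.

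**Figure D4:**
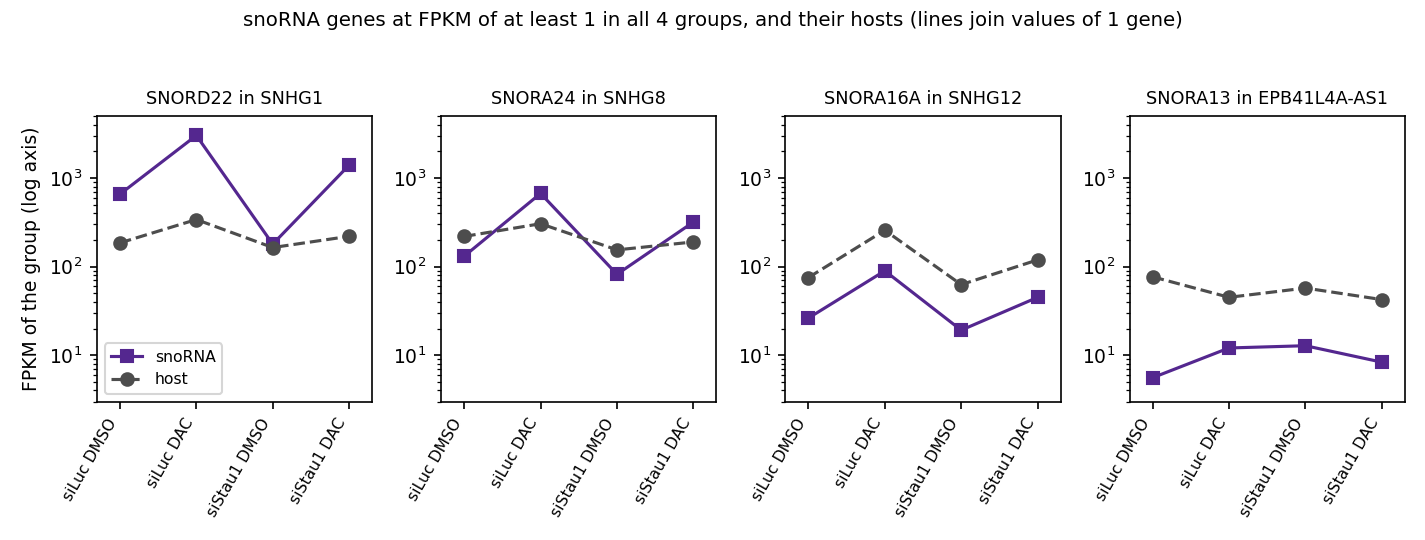
FPKM (log axis) in the 4 groups of the 4 nested snoRNA genes with at least 1 FPKM in every group (squares) and of their hosts (circles), with lines joining the values of 1 gene. SNORD22 reached 3017 FPKM in siLuc DAC while its host SNHG1 was at 339.

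With DAC in siLuc, the log2 ratio was 2.20 for SNORD22 and 0.88 for SNHG1, 2.35 for SNORA24 and 0.48 for SNHG8, and 1.77 for both SNORA16A and SNHG12. SNORA61 and SNORA44, also inside SNHG12, had lower values with DAC in siLuc: 16.1 and 12.5 FPKM for SNORA61, and 4.60 FPKM and a value near 0 for SNORA44. Both are left out of the plot because they were near 0 in 1 or more groups. None of the nested snoRNAs was called in any comparison, and over 38 tests their q-values in the authors' deposited table ran from 0.557 to 0.956. Among all annotated snoRNA genes at 1 FPKM or more in both groups, 120 of 126 were on the higher side with DAC in siLuc, with a median log2 ratio of 1.91. Of all tested genes 57.1% were, and scaling to the sum of FPKM lowers each ratio by 0.67. The median of the snoRNA genes was 1.03 with DAC in siStau1, −0.20 for the knockdown with DMSO and −1.10 for the knockdown under DAC. With DAC, 11 of 148 tested snoRNA genes were called in siLuc and 3 of 146 in siStau1, against 13.5% and 7.46% of all tested genes. For the knockdown, 1 of 142 (DMSO) and 4 of 148 (DAC) were called, against 0.799% and 0.904%. Some annotated host transcripts contain a whole snoRNA, 10 of 25 for SNHG1, 7 of 17 for SNHG12 and 1 of 5 for SNHG8. Reads from such a snoRNA could be assigned to its host. The part of these reads in the hosts' FPKM was not tested.

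Genes on the other strand also overlap the hosts, and whether the authors' counting used strand is not given in the sources used here. ZNFX1, a helicase gene with zinc fingers whose span shares 249 bases with that of ZFAS1, had 31.3 FPKM with DMSO and 119 with DAC in siLuc cells, against 17.6 and 68.0 in siStau1 cells. It rose with DAC in both arms, by log2 ratios of 1.93 and 1.94 (q = 0.0118 and 0.0101 in the authors' deposited table), while ZFAS1 had lower values. EPB41L4A, which spans EPB41L4A-AS1, had 1.95, 5.55, 4.80 and 4.23 FPKM. ZBTB37, which overlaps GAS5, had at most 4.98 FPKM, and MCMDC2, which overlaps SNHG6, at most 0.309 FPKM. Without strand, reads in the shared bases cannot be told apart.

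Other genes help to place the 10. Of 19 further genes named SNHG, 18 hold an annotated snoRNA gene, and SNHG27 holds none. With DAC in siLuc, 15 of the 19 were tested and all 15 were on the higher side. Their median log2 ratio was 1.20 (0.98 after GC centring, and lower by 0.67 when scaled to the sum of FPKM). Of these 15, 3 were called, all higher, against 13.5% of all tested genes called and 8.71% called higher. On the higher side were 57.1% of all tested genes. SNHG9 went from 32.2 to 146 FPKM (q = 0.0101 in the authors' deposited table) and SNHG25 from 16.5 to 81.0 FPKM (q = 0.0221). SNHG27, also called (q = 0.00825 in the authors' deposited table) though no snoRNA is annotated in it, was listed at 0 in both DMSO groups. It had 0.632 and 0.864 FPKM in the DAC groups of siLuc and siStau1. SNHG3 had the largest ratio in siStau1 without a call, with 519 and 1503 FPKM in siLuc and 173 and 852 in siStau1 (q = 0.524 for DAC in siStau1 in the authors' deposited table). In siStau1, 13 of 15 were on the higher side with DAC and SNHG27 was called, against 54.1% and 7.46% of all tested genes. For the knockdown, 3 of 14 were on the higher side with DMSO and 1 of 15 with DAC, with medians of −0.21 and −0.75, and none was called. Of all tested genes, 48.7% and 41.9% were on the higher side in these comparisons. A chosen list of 21 protein-coding hosts of snoRNAs, with ribosomal protein genes left out, had a lower median. With DAC in siLuc all 21 were tested, 8 were on the higher side and the median was −0.20. Beside 13.5% of all tested genes called and 4.78% called lower, 3 of the 21 were called, and all 3 fell. These were TPT1, a translation-linked tumour protein, from 2606 to 665 FPKM, EEF1B2, a subunit of translation elongation factor 1, from 1072 to 382 FPKM, and HSPA9, a mitochondrial chaperone, from 318 to 164 FPKM. In siStau1, where 7.46% of all tested genes were called, TPT1 alone of the 21 was, from 2876 to 1299 FPKM (q = 0.0455 in the authors' deposited table).

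The genes of proteins that act on these RNAs were measured at the mRNA level only. Of 8 core proteins of snoRNA particles, NOP58 of the box C/D particle alone was called, falling with DAC in siStau1 from 163 to 74.5 FPKM (q = 0.0338 in the authors' deposited table). In that comparison 7.46% of all tested genes were called. SNU13, which binds the snoRNA itself, had 158 FPKM with DMSO and 255 with DAC in siLuc and was not called. Of 22 decay factors, 5 were called with DAC in siLuc, where 13.5% of all tested genes were. SMG1, the kinase of UPF1, rose from 14.7 to 34.1 FPKM and SMG5, which acts on phosphorylated UPF1, from 15.5 to 36.6 FPKM. STAU2, the paralog of STAU1, UPF3B, an NMD factor, and MAGOH, a core protein of the exon junction complex, fell, from 27.9 to 7.33, from 7.21 to 2.38 and from 70.4 to 19.3 FPKM. In siStau1, 2 of the 22 were called, against 7.46% of all tested genes: SMG5 rose from 10.4 to 21.3 FPKM and UPF3B fell from 17.4 to 3.65 FPKM. None of the 22 was called for the knockdown. The median log2 ratio of the list with DAC was −0.16 in siLuc and −0.13 in siStau1.

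Protein-coding genes with mRNAs known as substrates of the same routes were listed for comparison. The FPKM is per gene, so a transcript that is a substrate cannot be told apart from the gene's other transcripts. Of 11 genes listed for NMD substrates, 6 were on the higher side with DAC in each arm, and 3 were called higher in both. These 3 were the stress genes GADD45B (8.63 to 55.9 FPKM in siLuc) and ATF3 (28.7 to 96.0 FPKM), and UPP1, a uridine phosphorylase (9.58 to 95.9 FPKM). SRSF3, a splicing factor, was called lower in siLuc, from 759 to 277 FPKM. The 4 calls in siLuc and 3 in siStau1 stand beside 13.5% and 7.46% of all tested genes. The median log2 ratio of the 11 was 0.06 in siLuc and 0.11 in siStau1, below and near the 0.23 and 0.11 of all tested genes. For the knockdown with DMSO none of the 11 was called, 1 was on the higher side and the median was −0.49. Under DAC, UPP1 fell from 95.9 to 38.0 FPKM (q = 0.00293 in the authors' deposited table). JUN, a transcription factor gene whose mRNA is known as a substrate of Staufen-mediated decay, had 3.18 FPKM with DMSO and 34.9 with DAC in siLuc cells, against 1.45 and 18.4 in siStau1 cells. It rose with DAC in both arms (q = 0.00162 for each in the authors' deposited table). For the knockdown it was not called, and the authors' deposited table gives q-values of 0.204 (DMSO) and 0.0582 (DAC).

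The median pattern of the hosts was small and described few of them. Centred on each host's own mean over the 4 groups, the median log2 level in siLuc was 0.03 with DMSO and 0.31 with DAC, and in siStau1 it was −0.31 and −0.06. Among 11925 genes with at least 1 FPKM in all 4 groups, those nearest to it by Euclidean distance over the 4 groups were STK16, TKT, SEL1L, ELP6 and TAB1, at distances of 0.028 to 0.051. SNHG5 and GAS5 lay close to it too, at 0.089 and 0.13, with 0.235% and 0.763% of other genes nearer. Both belong to the hosts that set the median. SNHG8, SNHG1, DANCR and SNHG15 followed, with 6.77%, 18.1%, 39.3% and 47.7% of other genes nearer. For EPB41L4A-AS1, ZFAS1 and SNHG12 the share was 53.5%, 54.4% and 71.0%. SNHG6 was the farthest host, at 2.18, and 95.8% of other genes were nearer.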

How the data were processed

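Per the file headers, the authors deposited a Cuffdiff table with 1 FPKM value per group and with p-values and q-values for 6 comparisons. The submitters' processing notes name Cuffdiff 2.2.1, HISAT2 2.1.0 and the build hg38. Recomputed here, the deposited q-values matched a Benjamini-Hochberg adjustment over all 102180 tests. Of the 6 comparisons, 5 were used. Log2 ratios were computed from FPKM with a pseudocount of 0.1, which understates changes of low genes, and carry no test. GC and length centring subtracted the median of genes in the same of 20 bins. Annotation and transcripts are GENCODE release 29 (GRCh38), which holds all 58699 gene identifiers. Genes named besides the 10 hosts were, per list, called genes (up to 6) and the 2 largest ratios, plus the 5 genes nearest in pattern; SNORD25, the overlapping genes and SNORA13 were named after their values were seen. The members and lists were chosen with earlier results of these data known. Scripts (Python 3.11.15, pandas 2.3.3) were tested on simulated data. The antibody-enriched repeat tables carry no gene names and were not used here. The list of Staufen-mediated decay substrates is reported here only for JUN.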

Additional observations from a re-analysis of the deposited data

How the results depend on the processing

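The values rest on 1 FPKM per group, so leaving out single libraries and fits with a replicate term were not run. No paired analysis was possible because the table holds no values per library. Pseudocounts of 0.01 and 1 left all 50 log2 ratios of hosts within 0.1. Centring in bins moved 38 (GC), 27 (length) and 39 (median transcript GC, chosen after seeing the data) of the 50 by more, and put 6, 5 and 3 on the other side of 0, none of them called. Scaling to protein-coding genes changed 1 sign, that of EPB41L4A-AS1 for the knockdown under DAC. For the knockdown under DAC and for both treatments together, the single called host was lost, leaving 0, at a q-value under 0.01 and with adjustment within the comparison. The median log2 ratio under the added GC centring was 0.76 for DAC in siLuc and 0.46 in siStau1. For the knockdown with DMSO the median was −0.12 with length centring. Under DAC the median was −0.49 with GC centring, −0.14 with length and −0.53 with the added GC centring. For both treatments together it changed sign, to 0.0872, 0.0334 and 0.15 in that order. Scaling to the sum of FPKM, also chosen after seeing the data, moved all 50 values and put 14 on the other side of 0, none of them called. The median then changed sign for DAC, to −0.30 in siLuc and −0.40 in siStau1. It was −0.039 for the knockdown with DMSO, −0.094 under DAC and −0.52 for both treatments together. The causes of these shifts were not tested. The called counts for DAC stayed at 2 in siLuc and 1 in siStau1 with either alternative on the q-value, except that SNHG15 also passed in siLuc with adjustment within the comparison.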
